A study of Mus musculus with 2 samples.

Results

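The V genes of the immunoglobulin heavy chain (Igh, chromosome 12) and kappa light chain (Igk, chromosome 6) were read against CTCF peaks in newborn mouse liver. The members are all genes of type IG_V_gene on these chromosomes in the GENCODE M21 annotation of mm10. They number 215 among 55413 annotated genes, with 113 in Igh and 102 in Igk. The choice used the annotation only, though earlier results of these data were known when it was made. Around them, peaks were taken from the V genes, the stretches between V genes, the interval between V and J genes, and the J and C genes with 200 kb beyond them. This gave 78 peaks at Igh and 39 at Igk.

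The study holds 1 group with 2 replicates and no treatment. Both are CTCF ChIP-seq libraries of whole liver at postnatal day 0 from the strain B6NCrl, made from livers of several dissections that were ground and pooled. Both replicates share 1 biosample label and 1 donor label, and what separates them may be technical only. The deposited peaks give no gene expression, so the labelled tissue could not be checked against its markers, and in whole liver fewer bound cells and weaker binding per cell cannot be told apart. The reproducible list that the authors call optimal held 57220 peaks with a median signal of 71.2. Library depth is unknown, because no read counts were used.

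CTCF is a DNA-binding protein whose core motif reads differently on each strand, and chromatin loops held by cohesin form mainly between cores that face each other. In developing B cells 1 V gene is joined to a J segment to build the variable domain of the antibody chain. In Igh, but not in Igk, a D segment is joined between them. The RAG recombinase cuts at a recombination signal next to each V gene, made of a heptamer, a spacer and a nonamer. CTCF sites in the antigen receptor loci are known for their part in bringing distant V genes to the J segments. Newborn liver is a site of B cell development, but most of its cells never rearrange these genes.

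The sequences on which the Igh results turn follow the 3′ ends of the V genes. Each is printed 5′ to 3′ on the strand of its V gene, which for Igh is the minus strand, and starts at the first base after the annotated end. Capitals mark the heptamer, the nonamer and the 14-base CTCF core, in this order. The first 7 belong to V genes with a peak summit within 200 bp, and were taken to show the different families.
Ighv5-2 (chr12:113578429-113578503): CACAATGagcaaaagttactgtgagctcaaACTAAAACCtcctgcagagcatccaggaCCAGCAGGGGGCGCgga
Ighv2-3 (chr12:113611107-113611186): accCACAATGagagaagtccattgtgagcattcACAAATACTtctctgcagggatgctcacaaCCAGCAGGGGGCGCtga
Ighv5-17 (chr12:113859074-113859148): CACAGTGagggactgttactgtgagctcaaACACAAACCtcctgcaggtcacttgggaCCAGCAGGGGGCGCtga
Ighv11-1 (chr12:113981802-113981878): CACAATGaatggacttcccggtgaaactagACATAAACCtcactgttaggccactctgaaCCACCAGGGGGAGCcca
Ighv7-4 (chr12:114222711-114222787): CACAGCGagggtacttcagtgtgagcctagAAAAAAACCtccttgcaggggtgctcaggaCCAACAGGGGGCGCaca
Ighv12-3 (chr12:114366443-114366520): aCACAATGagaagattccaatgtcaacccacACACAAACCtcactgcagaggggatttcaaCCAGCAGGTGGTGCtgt
Ighv6-6 (chr12:114434711-114434787): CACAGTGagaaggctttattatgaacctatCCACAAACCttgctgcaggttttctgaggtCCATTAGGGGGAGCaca

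The next 5 belong to V genes with no core or no peak at this place. Ighv5-6 and Ighv16-1 carry a core without a peak. Ighv1-69 (the large distal Igh family) and the kappa genes Igkv3-1 and Igkv7-33 have a recombination signal and no core in the 120 bp after the V gene. Igkv3-1 lies on the plus strand and the others on the minus strand.
Ighv5-6 (chr12:113625431-113625505): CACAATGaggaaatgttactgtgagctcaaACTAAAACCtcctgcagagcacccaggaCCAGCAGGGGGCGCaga
Ighv16-1 (chr12:114068736-114068827): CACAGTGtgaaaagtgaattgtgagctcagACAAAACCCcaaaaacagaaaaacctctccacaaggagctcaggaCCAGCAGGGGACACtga
Ighv1-69 (chr12:115623120-115623160): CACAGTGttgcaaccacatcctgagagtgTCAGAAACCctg
Igkv3-1 (chr6:70704178-70704208): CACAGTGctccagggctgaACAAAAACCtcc
Igkv7-33 (chr6:70058601-70058631): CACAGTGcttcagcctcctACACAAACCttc

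CTCF peaks stood denser and closer to V genes in Igh than in Igk. The Igh V array, from the first to the last V gene, spans 2422 kb (chr12:113578504-116000461) and held 49 peaks, or 20.2 per Mb. Replicate 1 alone gave 53 peaks and replicate 2 gave 48. The Igk V array spans 3149 kb (chr6:67555497-70704177) and held 23 peaks, or 7.30 per Mb, with 24 and 20 in the replicates alone. The density over the replicates was 20.9 ± 1.46 per Mb (SD, n = 2) in Igh and 6.99 ± 0.898 per Mb (SD, n = 2) in Igk, a difference well beyond the replicate spread. All autosomes together held 22.6 peaks per Mb, chromosome 12 held 18.6 and chromosome 6 held 21.4, so the Igh array was near and the Igk array below the level around it.

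Distance to the nearest V gene, taken from the peak summit to the nearer edge of the gene, also separated the loci. In Igh no summit lay inside a V gene, 17 of 49 lay within 200 bp of one, 18 at 200 bp to 5 kb, and 14 farther away. In Igk 1 of 23 lay within 200 bp, 7 at 200 bp to 5 kb, and 15 farther away. The share within 5 kb was 71.4% in Igh (exact binomial 95% interval 56.7 to 83.4%) and 34.8% in Igk (16.4 to 57.3%). These intervals cover counting error over peaks only. V genes also stood denser in Igh, with 113 in 2422 kb, than in Igk, with 102 in 3149 kb. The share of all array positions within 5 kb of a V gene was not computed. The distances of peaks were therefore not set against those of random positions in each array.

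The median distance was 2225 bp in Igh and 5874 bp in Igk. In the replicates alone it was 1270 and 1254 bp in Igh, and 9540 and 11305 bp in Igk, so the order of the loci was the same in each list and the gap exceeded the difference between replicates. The median itself depended on the list, by more than 1.5 times. The lower quartile of the distance was 69 bp in Igh and 4605 bp in Igk. The farthest Igh peak was 46428 bp from a V gene and the farthest Igk peak 25708 bp.

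**Figure D1:**
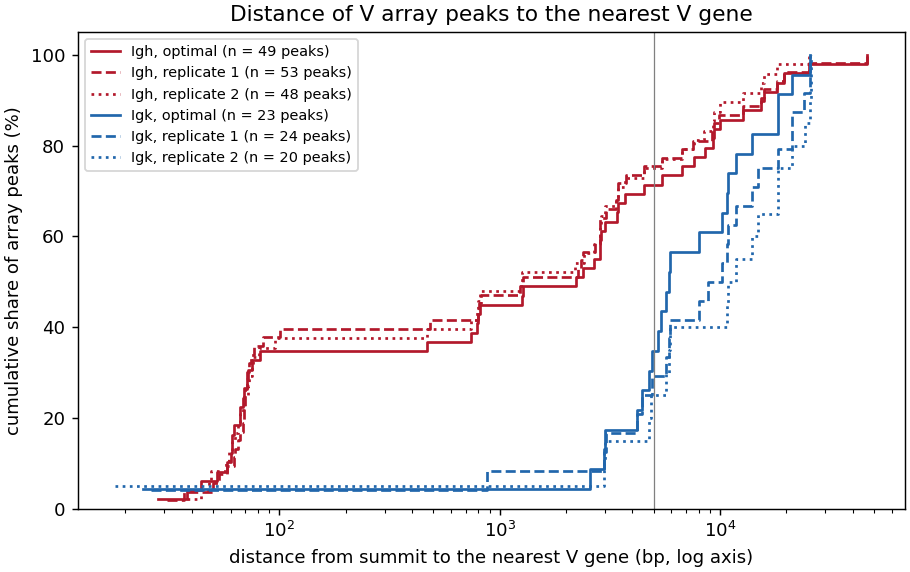
Cumulative share of V array peaks (%) against the distance from summit to nearest V gene (bp, log axis), for the optimal list and for each replicate alone, with a line at 5 kb. The Igh curves rise in a step below 100 bp, reach about the level of 35% there and pass 70% before 5 kb, while the Igk curves stay below 20% until about 4 kb.

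Counted from the genes, 39 of 113 Igh V genes (34.5%, exact interval 25.8 to 44.0%) had a summit within 5 kb, with 44 and 40 in the replicates. In Igk 8 of 102 did (7.84%, 3.45 to 14.9%), with 7 and 5 in the replicates. Neighbouring V genes share peaks, so the genes are not independent. Of genes of other types no longer than the longest V gene (796 bp), 22.4% had a summit within 5 kb, and of T cell receptor V genes, the matching segments of another receptor, 28.5% did. The Igh share was above both backgrounds, with the T cell receptor share inside its interval, and the Igk share was below both. Protein-coding genes, which are longer, stood at 69.5%.

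Within 200 bp the loci stood further apart. A summit lay that close to 18 Igh V genes (15.9%, 9.72 to 24%; 22 and 19 in the replicates) and to 1 Igk V gene in the optimal list and in each replicate. The short genes of other types stood at 2.76% and the T cell receptor V genes at 9.03%. The 18 include Ighv5-2, whose peak lies 53 bp beyond the end of the array and is therefore not among the 49.

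The peaks of both arrays were weaker than most of the list. In the Igh array the median signal was 38.0 (12.5 to 108.2), and 6 of 49 reached the list median of 71.2. In the Igk array it was 29.1 (7.13 to 198.3), and 4 of 23 reached it. In the full replicate lists of 300000 peaks, which hold many weak calls, 48 of 49 Igh array peaks and 22 of 23 Igk array peaks were found in both. Among the 57220 strongest peaks of each replicate, the lists used for all counts by replicate, 43 of 49 and 14 of 23 were found in both. Over the full-list matches the replicate signals ranked the peaks alike, with Spearman's rho of 0.855 across 48 Igh peaks and 0.757 across 22 Igk peaks, which share each library's depth.

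**Figure D2:**
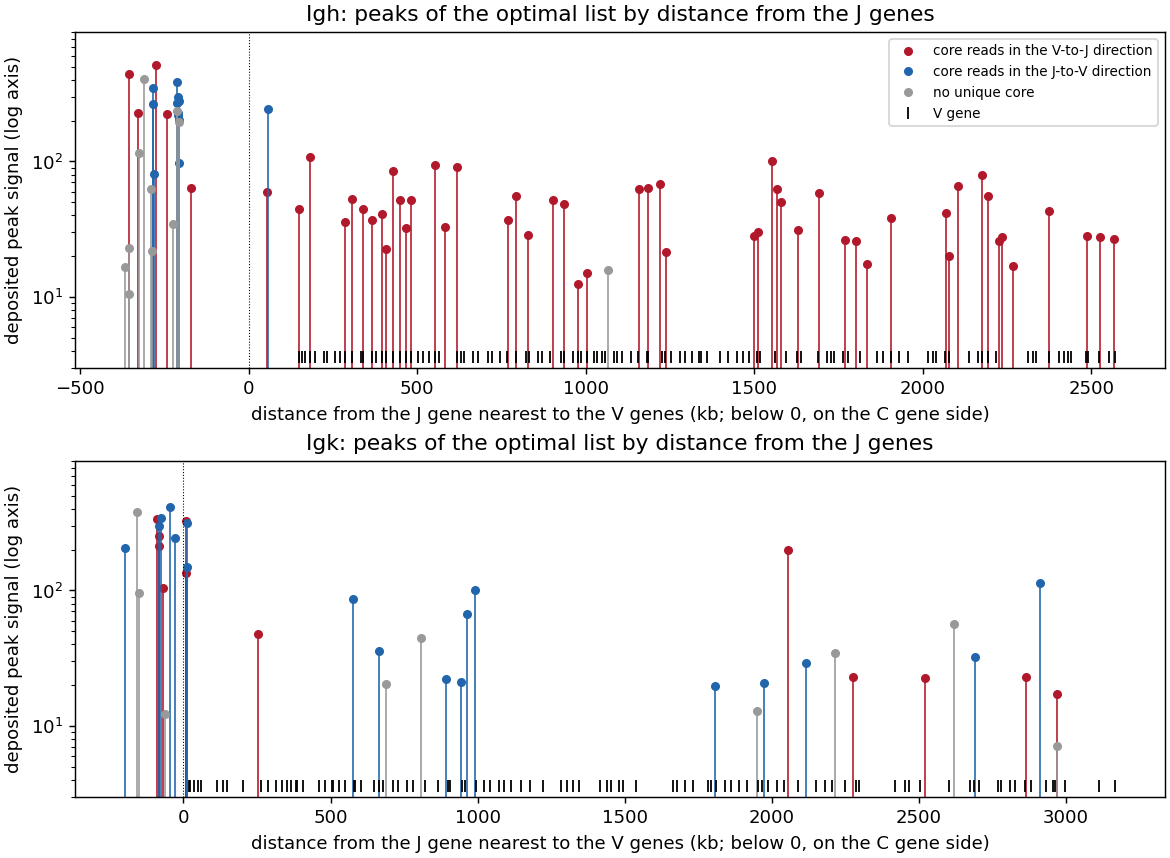
Deposited signal of each peak (log axis) against its distance from the J gene nearest to the V genes (kb; values below 0 lie on the side of the C genes), with V genes as ticks and colours for the direction of the core. All 48 Igh array peaks with a core are drawn in 1 colour, toward J, whereas the 17 Igk array peaks with a unique core show both directions.

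Igh V genes fell into 2 sets by family, the sequence classes named in the gene symbols. In 11 families at least 1 V gene had the CTCF core within 120 bp after its 3′ end. These hold 42 V genes at 149 to 1094 kb from the J genes, of which 38 carry the core and 18 had a summit within 200 bp. The other 5 families hold 71 V genes with no such core and no summit within 200 bp. They are Ighv1, the largest family with 53 genes, Ighv8 with 9, Ighv9 and Ighv14 with 4 each, and Ighv15 with 1. In the optimal list no Igh V gene without the core had a summit within 200 bp.

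The position of the core was nearly fixed. All 38 lay on the strand of their V gene, and 36 had their centre 55 to 75 bp after the V gene. The recombination signal was found at 103 of 113 Igh V genes, 80 of them with the exact heptamer CACAGTG. That heptamer stands on either strand in 0.341% of 19-base windows of the Igh array, the length searched after each V gene. Between the last base of the nonamer and the first base of the core stood 21 bases in 22 of the 36 V genes with both elements, 19 bases in 9, and 20 bases in 3. The core itself, searched on both strands with at most 2 mismatches, is found in 1.98% of 120-bp windows across the Igh array. A match describes the letters only.

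**Figure D3:**
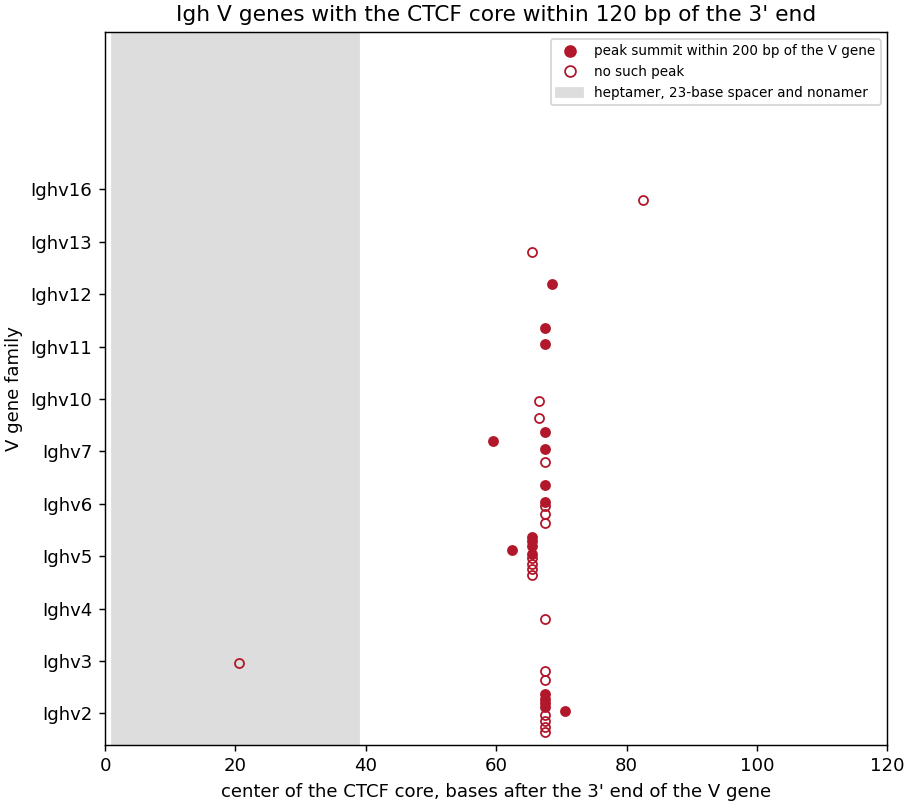
Centre of the CTCF core in bases after the 3′ end of the V gene (horizontal axis) for the 38 Igh V genes that have one, by family; filled circles have a peak summit within 200 bp (18 V genes), open circles do not (20), and grey marks the recombination signal. The points of 36 V genes stand in a column between 55 and 75 bases, whether or not the optimal list has a peak there, and those of Ighv3-8 and Ighv16-1 stand apart.

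Ighv5 and Ighv2, the families nearest to the J genes, held most of these close peaks. In Ighv5 9 of 10 V genes carry the core and 5 had a summit within 200 bp. Ighv2 has 9 genes, all with the core, and again 5 had such a summit. The J-nearest V gene, Ighv5-2, known for its frequent use in early B cell repertoires, had its peak 53 bp beyond the 3′ end with a signal of 44.9, and 23.6 and 22.7 in the replicates. Its core is a perfect match, as printed above.

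The strongest peak of the Igh array stood at Ighv2-3, 72 bp from the V gene, with a signal of 108.2 and replicate values of 52.8 and 55.5. Ighv5-17 followed in these families with 85.1 (41.2 and 42.8 in the replicates) at 44 bp. Both carry the same perfect core as Ighv5-2, with lower-case bases around it that differ. The weakest close peak of the Ighv5 family, at Ighv5-16, had 22.6, with 11.2 and 11.7 in the replicates, so the range within the family was wider than between replicates of a peak.

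The other close peaks of Ighv5 and Ighv2 lay between these. Ighv5-9-1 had a signal of 52.7 (replicates 24.1 and 27.6) and Ighv5-15 had 40.8 (20.0 and 20.2). In Ighv2, Ighv2-9 had 52.1 (30.1 and 21.6), Ighv2-9-1 had 45.0 (26.3 and 16.7), Ighv2-6-8 had 37.1 (25.6 and 12.2) and Ighv2-6 had 36.04 (20.6 and 15.3). Replicate 1 was the higher in all 4 of these, and their order is not separated by the replicates.

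Smaller families showed the same placement. Both genes of Ighv11, a family known from antibodies of B-1 cells, had strong close peaks. Ighv11-1 had 93.7 at 82 bp (47.8 and 44.9 in the replicates) and Ighv11-2 had 90.4 at 71 bp (45.7 and 43.8). Ighv12-3, the single annotated gene of another family known from B-1 cells, had 48.4 at 61 bp (28.4 and 17.6).

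In Ighv7, 3 of 4 genes had close peaks. The signals were 55.4 at Ighv7-4 (33.4 and 20.8 in the replicates), 51.6 at Ighv7-2 (22.4 and 29.0) and 32.4 at Ighv7-1 (17.0 and 15.5). Ighv7-1 had the shortest distance of all Igh V genes, 28 bp. In Ighv6, 2 of 5 genes had one, and these were the weakest of the 18. Ighv6-6 had 15.1 (10.2 and 5.70) and Ighv6-4 had 12.5 (2.94 and 9.09), both over a core with 2 mismatches.

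The remaining families of this set had no summit within 200 bp. Ighv10 (2 genes) and the single genes of Ighv4, Ighv13 and Ighv16 all carry the core. Of the 6 Ighv3 genes 3 carry it, each with 2 mismatches, and 3 had a summit within 5 kb, among them Ighv3-3 at 2854 bp. A pair of pseudogenes had close peaks over a core at a similar place. At Ighv4-2 the core centre stood 67.5 bp after the 3′ end and at Ighv8-1 55.5 bp. Ighv8-1 belongs to Ighv8, whose annotated V genes had no such core. Another summit lay inside the pseudogene Ighv10-2, with no core of at most 2 mismatches beside it. With pseudogenes counted as neighbours, 45 of 49 Igh array peaks lay within 5 kb of one or the other. Counted the same way, 12 of 23 Igk array peaks did. With pseudogenes there are 194 such genes in Igh and 176 in Igk. The share of all array positions within 5 kb of one was not computed, so these counts have no background.

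The 20 Igh V genes with a core and no close peak in the optimal list were set beside the 18 in several measures, and overlapped with them in each. A core with at most 1 mismatch stood at 16 of the 18 and at 13 of the 20. A perfect core stood at 7 of the 18 and at 5 of the 20, which were Ighv2-2, Ighv5-4, Ighv5-6, Ighv2-5 and Ighv5-12. Of 36-base windows around the core, the share that occurs once in the array had a median of 98.2% (75.9 to 100%) at the 18 and of 86.7% (16.3 to 100%) at the 20. It was under 50% at 3 of the 20, Ighv5-6, Ighv5-12 and Ighv3-1, and the printed sequence of Ighv5-6 is identical to that of Ighv5-12. How reads from such copies were placed is not given in the sources used here, and the part of this in the missing peaks was not tested.

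Part of the 20 had a call in the replicates. In the kept lists of 57220 peaks, replicate 1 called 5 of them and replicate 2 called 2, which were Ighv4-1 and Ighv6-3 and were in both. In the full lists of 300000 peaks replicate 1 listed 11 of them and replicate 2 listed 7, all 7 among the 11. Ighv4-1 had 12.2 and 9.63 and Ighv6-3 had 11.3 and 9.03, close to the replicate values of the weakest close peaks. The remaining 9 genes were called in neither list. Among them Ighv16-1, Ighv2-7, Ighv6-5 and Ighv6-7 had sequence that occurs once throughout the window.

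Ighv1, the family that fills the distal part of the locus, had CTCF peaks at another place. None of its 53 genes had a summit within 200 bp, and 18 had one within 5 kb, from 16 peaks because neighbours share them. Of these 16 peaks 14 lay upstream of the nearest V gene, on the 5′ side where the promoter is, and 11 had a perfect core. The 9 genes of Ighv8, mixed among them, had no summit within 5 kb. Together the 2 families lie 1032 to 2570 kb from the J genes.

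Positions within Ighv1 were spread more widely than after the proximal V genes, from -4943.5 to 2870.5 bp counted from the 3′ end to the core centre, with values below 0 upstream. Of the 16 cores 4 lay close to each other, others stood in pairs, and the rest were spread out. The core centre stood at -1230.5 bp at Ighv1-67, at -1242.5 bp at both Ighv1-64 and Ighv1-74, and at -1250.5 bp at Ighv1-69. At Ighv1-59 it stood at -1708.5 bp and at Ighv1-50 at -1730.5 bp. At Ighv1-54 it stood at -3857.5 bp and at Ighv1-9 at -3869.5 bp. At Ighv1-42 it stood at -2660.5 bp and at Ighv1-16 at -2701.5 bp. The 26 bases at Ighv1-67 are printed on the strand of the V gene, with the core in capitals, beside those of the strongest peak near Ighv1 pseudogenes.
Ighv1-67 (chr12:115605158-115605183): tcagaaCCAGCAGGGGGCACaatggg
near pseudogene Ighv1-46 (chr12:114981678-114981703): tcatgaCCAGCAGGGGTCAGcatgtg

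Signals of the 16 Ighv1 peaks ran from 20.1 to 79.3, inside the range of the proximal close peaks. Ighv1-67 had 79.3, with 39.0 and 38.7 in the replicates, Ighv1-50 had 58.6 (35.9 and 22.4) and Ighv1-69 had 55.2 (28.6 and 27.2). Ighv1-64, with the same perfect core as Ighv1-67, had 20.1 (7.48 and 12.1). Ighv1-74, at nearly the same place, had 43.4 (23.5 and 20.1), and Ighv1-59 had 38.0 (22.0 and 15.98). Signals in this family thus differed up to several times between V genes with the same core and position, beyond the difference of the replicates at each. Ighv1-9 had 63.1 (42.5 and 19.4) at 3428 bp. The second strongest peak of the array, 100.1 (49.4 and 51.2), lay 9425 bp from Ighv1-47 and 3557 bp from the pseudogene Ighv1-46.

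Downstream peaks were rare in Ighv1. Ighv1-12 had one 466 bp from the 3′ end with a signal of 64.1 (39.0 and 25.2 in the replicates). Ighv1-85, the last V gene of the array at 2570 kb from the J genes, had one at 2863 bp with 26.8 (9.84 and 16.4). In the whole array the side of the V gene thus changed with distance, since all 17 summits within 200 bp lay on the 3′ side and 16 of the 18 at 200 bp to 5 kb lay on the 5′ side.

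**Figure D4:**
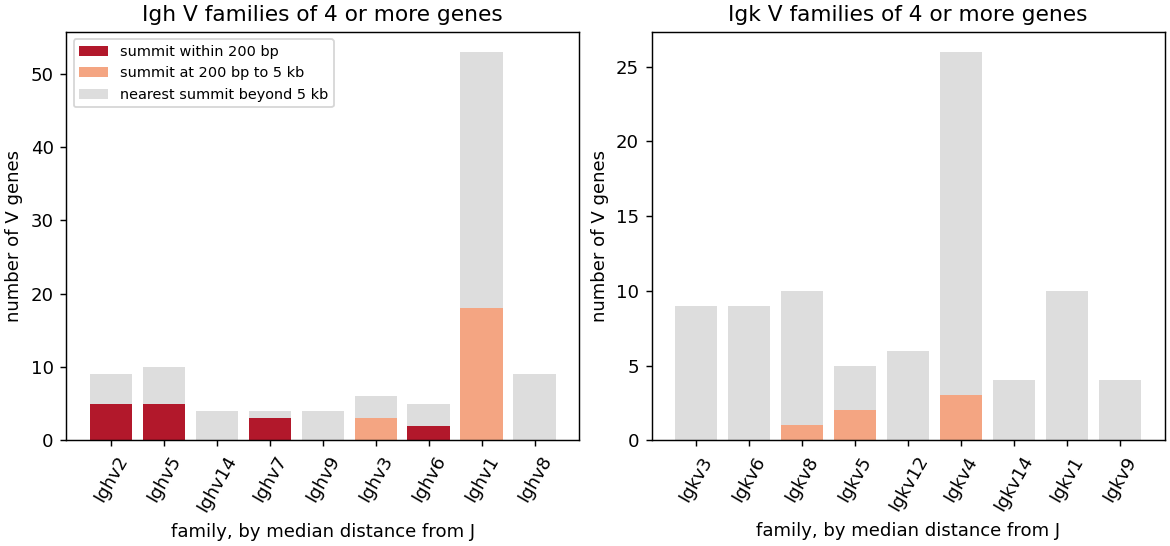
Number of V genes (vertical axis) in each family of 4 or more genes, ordered by median distance from the J genes, split by the distance of the nearest summit. Summits within 200 bp occur in Ighv2, Ighv5, Ighv7 and Ighv6, Ighv1 has 18 genes with a summit at 200 bp to 5 kb, and the Igk families shown have none within 200 bp.

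In Igk the peaks near V genes were few. An identical core lay under peaks 5′ of Igkv5-45, Igkv5-43 and Igkv5-48, but at differing distances of 4193, 4902 and 5930 bp. The same core lay under a peak 5700 bp from Igkv12-46, on its 3′ side. Igkv7-33 had the only summit within 200 bp, 24 bp from the V gene on its 5′ side, with a signal of 35.6 and 17.7 and 15.5 in the replicates. Its core lies just beyond the 5′ end of the gene. Igkv8-28 had the strongest peak within 5 kb, 86.8 (42.6 and 44.7) at 3014 bp. The cores of both are printed on the minus strand, which is the strand of these V genes.
Igkv7-33 (chr6:70059197-70059222): tgtcaaACAGCAGGGGGAGCaggatg
Igkv8-28 (chr6:70147176-70147201): aacctaCCACTAGGGGCAGGagcctg

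The other 6 Igk V genes with a summit within 5 kb had signals of 12.8 to 22.9. They were Igkv17-127, Igkv5-43, Igkv5-45, Igkv4-92, Igkv4-86 and Igkv4-91, at 2557 to 4902 bp. Of the 8 summits 7 lay on the 5′ side of the V gene and the 1 at Igkv4-92 on the 3′ side. Igkv4, the largest kappa family, had 3 of 26 genes within 5 kb, Igkv5 had 2 of 5, and Igkv1 (10 genes), Igkv3 (9) and Igkv6 (9) had none. The nearest to the 5 kb limit outside it was Igkv1-132, 5200 bp from a summit with a signal of 7.13, the weakest of the array, with no summit within 100 bp in the list of replicate 2.

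The strongest Igk array peaks stood away from V genes. The first, with 198.3 (94.2 and 101.9 in the replicates), lay 11776 bp from Igkv10-95, over a core in repeat-masked sequence. The pseudogene Igkv2-95-1 was nearer to this peak, at 2559 bp. The second, with 113.1 (60.1 and 53.2), lay 21176 bp from Igkv14-130. The third, with 100.7 (48.0 and 52.0), lay 5930 bp from Igkv5-48. In Igk the median signal was 34.3 for the 15 peaks beyond 5 kb and 21.2 for the 7 at 200 bp to 5 kb. In Igh it was 48.4 within 200 bp (17 peaks), 34.0 at 200 bp to 5 kb (18) and 30.3 beyond (14).

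The recombination signal was common in Igk too, but without a core beside it. It was found at 98 of 102 V genes, with a spacer of 12 bases, give or take 1, and 86 of these had the exact heptamer. That heptamer stands on either strand in 0.252% of 19-base windows of the Igk array. A core within 120 bp after the 3′ end was found at 1 gene, Igkv14-111, on the opposite strand and with no peak. Across the whole Igk array 1.67% of 120-bp windows hold a core with at most 2 mismatches, against 1.98% in Igh.

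Cores with fewer mismatches set the loci apart. A perfect core occurred 44 times in the Igh array and 1 time in the Igk array, or 18.2 and 0.318 per Mb. With 1 mismatch there were 101 and 79, and with 2 mismatches 299 and 415. Of the 44 perfect Igh cores all 44 point toward the J genes and 19 had a peak (43.2%, exact interval 28.3 to 59.0%). Of the 101 with 1 mismatch 82 point toward J, 26 of these had a peak, and none of the 19 that point away had one.

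Under the peaks the same held. A core with at most 2 mismatches lay within 50 bp of the summit in 48 of 49 Igh array peaks (98.0%) and in 18 of 23 Igk array peaks (78.3%), against 71.2% of the list. Of all windows of that length, 101 bp, in the V arrays, 1.597% hold one in Igh and 1.39% in Igk. At most 1 mismatch was seen in 45 of the 49 and in 1 of the 23, against 38.4% of the list. The Igh array had 19 perfect cores, 26 with 1 mismatch and 3 with 2, and Igk had 17 of its 18 with 2. For a given core the Igh peaks were weaker than the list. Perfect cores had a median signal of 52.1 in the Igh array and 228.1 in the list, and cores with 1 mismatch had 35.3 and 118.2. At 2 mismatches the list median was 62.2, against 15.1 in 3 Igh peaks and 32.1 in 17 Igk peaks.

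The cores of the Igh array pointed 1 way. All 48 had a unique best match, and all 48 (100%, 92.6 to 100%) read from V toward J, which is also the strand of every Igh V gene. Both replicates alone gave the same, 52 of 52 and 47 of 47. In Igk 6 of 17 unique cores read toward J (35.3%, 14.2 to 61.7%), with 8 of 19 and 6 of 15 in the replicates. Igk V genes lie on both strands, 38 on plus and 64 on minus, and 14 of the 17 cores lay on the strand of their nearest V gene.

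Some stretches of V genes held no peak of the optimal list. The longest in Igh was 259 kb (chr12:114668563-114927867) with 12 Ighv1 genes, and the next were 162 kb with 6 V genes and 152 kb with 9. The longest in Igk was 817 kb (chr6:68915748-69733068) with 25 V genes, 22 of them Igkv4, followed by 322 kb with 15 V genes and 244 kb with 6. These stretches were not all empty in the replicates alone. The longest Igk stretch held 1 summit in each replicate, and the second of Igk and the first 2 of Igh held 1 in replicate 1 and 0 in replicate 2. The third of each locus held 0 in both. The median spacing of array peaks was 33.2 kb in Igh and 76.9 kb in Igk. Of 36-base windows, 72.5% occur once in either array. In the longest stretch the share was 66.3% in Igh and 62.9% in Igk. It was 46.2% and 57.5% in the second, and 89.8% and 78.3% in the third. The part of this share in the missing peaks was not tested.

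The J-nearest V genes differed between the loci in what lay beside them. In Igh the first 5 were Ighv5-2, Ighv2-2, Ighv5-4, Ighv2-3 and Ighv5-6, of which Ighv5-2 and Ighv2-3 had a summit within 200 bp and the others had their nearest at 9816, 13138 and 14391 bp. In Igk Igkv3-1 lies 18.4 kb from the J genes and 5298 bp from a peak of the V-to-J interval. Igkv3-2, Igkv3-3, Igkv3-4 and Igkv3-5 were 10408, 21941, 37098 and 45580 bp from a summit. At the far end, Igkv2-137 had its nearest summit at 5743 bp, outside the array, with a signal of 25.1.

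Both V-to-J intervals held a pair of cores that point apart. In Igh the interval is 148.7 kb long and has 3 peaks, the V-nearest being that of Ighv5-2. The other 2 lie where the element IGCR1, known to hold back early joining of the J-nearest V genes, sits. The peak nearer to the J genes had 59.3 (30.1 and 28.7 in the replicates) with a core toward J. Its neighbour on the V side had 244.5 (113.2 and 131.3) with a core toward the V genes, so that it faces the 48 array cores. This was the one peak of the 3 above the list median.
toward J (chr12:113485262-113485287, minus strand): tcctctCCACAAGAGGGCAGaattcg
toward V (chr12:113487882-113487907, plus strand): tcatagCCACAAGGGGGAAGcagaga

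In Igk the interval is 18.4 kb long and has 4 peaks, all above the list median. It is known to hold the elements Cer and Sis, which limit the use of the J-nearest kappa V genes. The pair nearer to the V genes had 312.7 (154.9 and 157.2 in the replicates) and 149.0 (83.2 and 66.4), both with a core toward the V genes. The pair nearer to the J genes had 134.2 (69.1 and 64.3) and 324.6 (150.7 and 173.3), both with a core toward J. The 4 are printed in the order from V to J. The cores of the first pair are identical and differ from the other 2.
V side, first (chr6:70709462-70709487, minus strand): gctgtaTCAGCAGATGGCAGtgttgt
V side, second (chr6:70709869-70709894, minus strand): gctgtgTCAGCAGATGGCAGtgctgt
J side, first (chr6:70713306-70713331, plus strand): taatggCCACTTGAGGGAGCtaaaga
J side, second (chr6:70714396-70714421, plus strand): atgtggCCAGCAGAGGCCCCtagtca

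On the side of the C genes, which encode the constant domains, signals were higher than in the arrays. From the J genes through the C genes Igh had 1 peak, in Igha with 64.0 (28.3 and 34.2 in the replicates), and Igk had 0. Within 200 kb beyond the C genes Igh had 25 peaks with a median of 224.2 (10.6 to 516.7) and Igk had 12 with a median of 249.2 (12.2 to 414.9). Both medians were far above the 38.0 and 29.1 of the V arrays.

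Of the 25 Igh peaks 10 stood together in 8.28 kb, at 30.4 to 38.7 kb from Igha, where the cluster of CTCF sites at the 3′ end of the locus is known. Their signals ran from 98.0 to 387.6 with a median of 232.0. A core was found in 9 of them, with a unique best match in 8, and all 8 point toward the V genes. They therefore face the 48 array cores. The core of the peak with 297.7 (159.6 and 137.0 in the replicates) is a perfect match.
3′ cluster (chr12:113220047-113220072, plus strand): atctagCCACCAGGGGGCACatgagc

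The other 15 Igh peaks lay at or between neighbouring genes, among them Tex22 with 440.2, Mta1 with 404.8, Crip2, Crip1, Tmem121 and Pacs2. The strongest, 516.7 (264.4 and 253.5 in the replicates), lay between genes. Beyond Igkc the 12 peaks stood at 25.7 to 195.0 kb, in Rpia (414.9), an enzyme gene of the pentose phosphate pathway, in Eif2ak3 (382.6), a stress kinase gene, and between genes. Of 9 unique cores there 4 were forward and 5 reverse, so no cluster of 1 direction was seen beside Igk.

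The genes that carry out or direct the joining of V genes were read from a list of 30. A promoter peak, with a summit within 1 kb of a transcript start, was found at 12 of them (40%), against 36.2% of protein-coding genes, so the list stood near the background. Only 7 of the 12 lay at the 5′ end of the gene. Of 12 recombination genes 6 had one, with the strongest at Nhej1 (369.6), Lig4 (251.7) and Xrcc5 (109.6), which act in end joining. Rag1 and Rag2, the recombinase genes, had none, with the nearest summits 3552 and 27345 bp away.

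Of 10 B lineage regulators 4 had a promoter peak. They were Bcl11a (157.9), Yy1 (40.04), Tcf3 (37.1) and Ikzf1 (32.4), all transcription factor genes. Pax5, needed for contraction of the Igh locus, had its nearest summit 9904 bp from a start. Of 8 receptor genes 2 had one, Vpreb1 (52.5), part of the surrogate light chain, and Cd79b (4.90), a signalling chain of the B cell receptor. The Cd79b peak, though counted, lay near the weakest signal of the list, 4.12.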

How the data were processed

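CTCF ChIP-seq of newborn liver was read from peak lists on mm10, per the labels, for 2 replicates of 1 group. The authors deposited 1 list for each replicate, made from its alignments, a list from both together, and lists thresholded by the irreproducible discovery rate, per the text deposited with the samples. The optimal list was used throughout, with the conservative list as an alternative. The list from both replicates was not used. The sources used here give no aligner, caller, threshold or scale of the deposited signal, so the signal ranks and describes peaks within a list only. Depth is unknown.

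The summit is the peak start plus the deposited offset. For a replicate alone, its 57220 strongest peaks of 300000 were kept, and its signal at a peak is that of the nearest summit within 100 bp in its full list. Genes are those of GENCODE M21 on GRCm38. The consensus 14-base CTCF core was sought within 50 bp of the summit on both strands with at most 2 mismatches, and only a single best match gave a direction. Recombination signals were sought from the first 13 bases after each V gene, with up to 2 heptamer and 4 nonamer mismatches and a spacer of 23 bases in Igh or 12 in Igk, give or take 1. Shares have exact Clopper-Pearson 95% intervals, for counting error only. Peaks and neighbouring genes are not replicates, and both loci come from the same 2 libraries, so no test was run. Scripts were tested on simulated data. Python 3.11.15, pandas 2.3.3, scipy 1.17.1 and pysam 0.24.0 were used.

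For each locus the V genes named are the 10 closest to a summit, the 10 with the strongest peak within 5 kb, the first and last, and the J-nearest 5, with every peak between V and J and beyond, the 3 longest intervals without an optimal peak, and the 3 strongest array peaks. For the recombination list they are the 3 strongest per role. Other named genes (those with a core and no peak, the pseudogenes, Rag1, Rag2 and Pax5) were chosen after their values were seen. The members and lists were chosen with earlier results of these data known.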

Additional observations from a re-analysis of the deposited data

How the results depend on the processing

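Of 90 alternatives, 63 left their result near the main value and 27 moved it. With only the peaks at or above the list median signal, V genes within 5 kb numbered 5 in Igh and 1 in Igk, V genes within 200 bp 4 and 0, array peaks 6 and 4, cores toward J 6 of 6 and 1 of 4, Igh peaks between V and J 1, and the median distance was 77 bp in Igh and 8853 bp in Igk. With each replicate alone the median distance was 1254 to 1270 bp in Igh and 9539.5 to 11305 bp in Igk, and Igk V genes within 5 kb numbered 5 to 7, the 5 being without replicate 1. Within 1, 2 and 10 kb there were 23, 25 and 49 Igh V genes and 1, 1 and 16 Igk V genes. With pseudogenes counted, 61 of 194 Igh genes lay within 5 kb and the Igh median distance was 807 bp. The same count gave 12 of 176 Igk genes and an Igk median of 4902 bp. The Igh median was 1900.5 bp in the conservative list and 2656 bp from the 3′ end. With at most 1 mismatch 1 of 1 Igk cores pointed toward J. Igh peaks from the J genes to 100 kb beyond the C genes numbered 14, against 26 to 200 kb. In every alternative run, Igh had more V genes within 5 kb, more array peaks and a shorter median distance than Igk. Arrays widened by 5 kb at both ends, chosen after seeing the data, held 50 and 23 peaks. No paired analysis was possible because the series has 1 group. Depth is unknown, so a V gene without a peak may carry binding that these libraries did not detect.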

Other observations

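The lambda light chain, the third immunoglobulin locus, has 3 V genes on chromosome 16, and all 3 had a summit within 5 kb. The distances were 2684 bp at Iglv1, 2637 bp at Iglv2 and 4368 bp at Iglv3, and no summit lay within 200 bp. Signals of the 5 peaks inside this locus ran from 32.2 to 78.1, within the range of the Igh V array. With 3 genes the share is only a count.

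Among T cell receptor V genes the closeness of peaks differed between chromosomes. On chromosome 6, which also holds Igk, 16 of 22 had a summit within 5 kb and 2 within 200 bp, with a median distance of 1708 bp. On chromosome 14 it was 23 of 115 and 10, with a median of 31795 bp, and on chromosome 13 it was 2 of 7 and 1. The difference was not tested, since neighbouring V genes share peaks.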
